A study of Caenorhabditis elegans with 2 samples.

Results

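The regions described here are 1885 stretches of the nuclear genome of Caenorhabditis elegans that the authors' peak caller listed in each of 2 biological replicates of 1 ChIP-seq experiment but not in the list called on both replicates together. They were selected on position: a region of the replicate 1 list was taken if its midpoint lay within 100 bp of a midpoint in the replicate 2 list and if it overlapped no region of the joint list by 1 bp or more. The listing of a region depends on its signal, so the signals and ranks given below are descriptions of what was chosen and carry no test. The 1885 regions were 7.02% of the 26857 nuclear regions of replicate 1, whose whole list held 26878. They are called shared non-joint regions here, and the 1939 that met the first condition but overlapped a joint region are called shared joint regions. The other 23033 nuclear regions of replicate 1 are called unmatched, and 1848 of these overlapped a joint region.

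The experiment mapped NHR-12, a nuclear hormone receptor, in whole L1 larvae of mixed sex, the stage that hatches from the egg. Both replicates came from strain OP318, with the genotype unc-119(ed3) III; wgIs318, in which an integrated transgene makes NHR-12 with GFP and FLAG at its C terminus. All values come from this 1 group, so there is no comparison between conditions, and the tag and the line are shared by every value. The labels give the age as unknown. The whole animal was used, so the cell type behind a region is not known.

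Nuclear hormone receptors are transcription factors with a zinc finger DNA-binding domain, and many respond to small lipophilic ligands. The family is greatly expanded in nematodes, and most members have no known ligand. A region list made as input to a reproducibility analysis is deliberately long, so that its tail can hold background. A region that recurs between replicates is of interest because agreement between replicates is a common criterion for calling binding sites.

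The lists gave no read counts, so the depth of each replicate is unknown. Replicate 2 listed 30000 regions, all nuclear, with a most common width of 364 bp. The joint list held 3798 nuclear regions, with a most common width of 376 bp. All 1885 shared non-joint regions were 396 bp wide, and together they covered 746 kb, 0.744% of the nuclear genome. Each was matched to a replicate 2 region of its own, and none of the 1885 matched replicate 2 regions overlapped a joint region either. Neither of the 2 genes that the strain's labels name lay among them. No region of either replicate or of the joint list had its midpoint within 2000 bp of nhr-12 (WBGene00003611, chromosome V, 10082133 to 10084049, ce11), the gene of the tagged receptor. Around unc-119 (WBGene00006843, chromosome III, 10902641 to 10908935), the same distance held 5 regions of replicate 1, 4 of replicate 2 and 1 joint region, but no shared non-joint region.

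The sequences of the first 8 regions by rank in both lists that lie off the first chromosome and contain no annotated UTR are printed here, because these are the regions ranked best in both replicates. Each runs 100 bp to either side of the replicate 1 midpoint on the plus strand of ce11 (assembly WBcel235, RefSeq). Capitals mark matches, on either strand, to AGGTCA and AAGTCA (forms of the short site bound by nuclear receptors), TGATAA (bound by GATA factors), CACGTG (E-box) and GAGAGA (a GA repeat).
chrIV:3755794-3755994: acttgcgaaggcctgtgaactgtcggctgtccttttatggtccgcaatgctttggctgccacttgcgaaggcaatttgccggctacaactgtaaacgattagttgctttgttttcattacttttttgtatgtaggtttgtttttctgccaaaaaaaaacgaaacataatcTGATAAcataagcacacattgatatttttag
chrX:6643497-6643697: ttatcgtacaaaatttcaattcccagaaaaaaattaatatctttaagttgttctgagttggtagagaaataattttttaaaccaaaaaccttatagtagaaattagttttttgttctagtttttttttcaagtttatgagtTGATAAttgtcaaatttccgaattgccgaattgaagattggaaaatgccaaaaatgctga
chrIII:6375100-6375300: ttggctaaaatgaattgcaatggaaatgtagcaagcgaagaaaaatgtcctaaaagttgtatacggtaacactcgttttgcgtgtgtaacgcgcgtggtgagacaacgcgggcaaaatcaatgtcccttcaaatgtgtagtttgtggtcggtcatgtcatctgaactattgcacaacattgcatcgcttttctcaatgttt
chrIV:5970694-5970894: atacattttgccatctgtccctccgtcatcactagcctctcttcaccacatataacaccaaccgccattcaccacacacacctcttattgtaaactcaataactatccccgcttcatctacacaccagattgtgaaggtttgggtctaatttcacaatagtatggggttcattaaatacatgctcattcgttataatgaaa
chrV:3644376-3644576: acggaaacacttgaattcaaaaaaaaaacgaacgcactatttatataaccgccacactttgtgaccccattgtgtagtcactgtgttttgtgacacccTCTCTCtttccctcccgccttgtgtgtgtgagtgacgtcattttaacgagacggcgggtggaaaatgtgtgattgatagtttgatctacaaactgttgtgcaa
chrII:13403740-13403940: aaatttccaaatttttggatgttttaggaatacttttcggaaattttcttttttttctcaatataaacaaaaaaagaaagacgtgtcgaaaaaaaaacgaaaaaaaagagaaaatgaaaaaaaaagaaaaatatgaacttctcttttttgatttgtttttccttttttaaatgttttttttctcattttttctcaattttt
chrIV:15178666-15178866: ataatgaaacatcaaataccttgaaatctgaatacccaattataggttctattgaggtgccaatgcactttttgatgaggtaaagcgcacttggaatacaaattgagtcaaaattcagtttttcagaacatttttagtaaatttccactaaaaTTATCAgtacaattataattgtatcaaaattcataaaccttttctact
chrIII:1284334-1284534: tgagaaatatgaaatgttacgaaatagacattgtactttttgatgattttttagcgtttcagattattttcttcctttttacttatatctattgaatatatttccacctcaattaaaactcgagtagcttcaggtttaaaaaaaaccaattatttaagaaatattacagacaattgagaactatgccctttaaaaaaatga

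These 8 windows had little in common. Their GC content ran from 20.4% in the window on chromosome II, which was AT-rich and 98.0% soft-masked as repeat, to 42.8% in the window on chromosome V at 3644376. None of the 8 held AGGTCA or AAGTCA. The GATA pattern TGATAA occurred in 3 of them, and GAGAGA, as its reverse complement, in 1.

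The short nuclear receptor sites occurred at much the same rate in the whole set as elsewhere. AGGTCA was found in 85 of the 1885 windows (4.51%, exact 95% interval 3.62 to 5.55), in 4.58% of the 23033 windows around unmatched replicate 1 regions, in 4.34% of the 3798 joint windows and in 4.79% of 249435 windows spaced evenly over the genome. AAGTCA was found in 168 windows (8.91%, interval 7.66 to 10.3), against 8.76% of unmatched, 8.03% of joint and 9.39% of genome windows. The intervals of the shared non-joint regions held the genome value for both. These were descriptions and were not tested.

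GAGAGA was the pattern with the widest gap between sets. It lay in 166 shared non-joint windows (8.81%, interval 7.57 to 10.2), 9.19% of unmatched windows and 24944 of the 249435 genome windows, but in 593 joint windows (15.6%, interval 14.5 to 16.8). TGATAA was in 19.5% of shared non-joint windows (interval 17.7 to 21.3), 18.7% of unmatched, 17.5% of joint and 17.9% of genome windows. CACGTG was in 2.49% (interval 1.84 to 3.30), 3.02%, 3.42% and 3.32% in the same order. Median GC content was 32.8% in the shared non-joint windows, 31.8% in unmatched, 33.3% in joint and 35.3% in genome windows, so listed regions of every kind were poorer in G and C than the genome. Windows that were at least 50% soft-masked made up 33.3%, 36.7%, 32.9% and 27.2% of these sets.

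Regions listed in both replicates outside the joint list had lower median signals than shared joint regions in both lists, and few were strong in both. Of all nuclear replicate 1 regions, 3824 (14.2%) had a replicate 2 midpoint within 100 bp, and the 1885 shared non-joint regions were 49.3% of those 3824. Their signal values, a score of the authors' caller without a stated scale, had a median of 7.42 in replicate 1 (range 5.98 to 15.5), where the unmatched regions had 7.96 and the 1939 shared joint regions 10.3. The matched replicate 2 regions had a median of 6.45 (range 5.08 to 15.9), against 9.37 for those of the shared joint regions. The median rank was 16701 of 26878 in replicate 1 and 18380 of 30000 in replicate 2. The −log10 q-values that the authors give per region had a median of 0.0585 and a highest value of 0.663 in replicate 1. In replicate 2 these were 0.0875 and 1.32. Values were low in the other sets too. In replicate 1 the median was 0.0780 for unmatched and 0.187 for shared joint regions. In the joint list it was 0.0868, with a highest value of 1.08. Of the 3798 nuclear joint regions, 146 were in the set that passed the authors' reproducibility threshold.

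No shared non-joint region was strong in both lists. The best stood at 16.2% of each list, counted from the strongest region at 0%, and 9 of 1885 lay in the upper 25% of both. In the upper 10% of both lists there was none, against 251 of the 1939 shared joint regions (12.9%). Just 8 were in the upper 5% of at least 1 list, against 668 shared joint regions (34.5%). The upper 50% of at least 1 list held 1175 (62.3%) and that of both lists 191 (10.1%), so most were in the stronger part of 1 list only or of neither. The lower 50% of both lists held 710 (37.7%), against 51 shared joint regions (2.63%). Across the 1885 regions the 2 signals had a Spearman rho of -0.137 and, on the log2 scale, a Pearson r of -0.157. Across the 1939 shared joint regions these were -0.00703 and 0.294. Both signals come from lists with a lower limit, and few regions strong in both were left outside the joint list. These correlations therefore only describe the chosen sets.

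**Figure D1:**
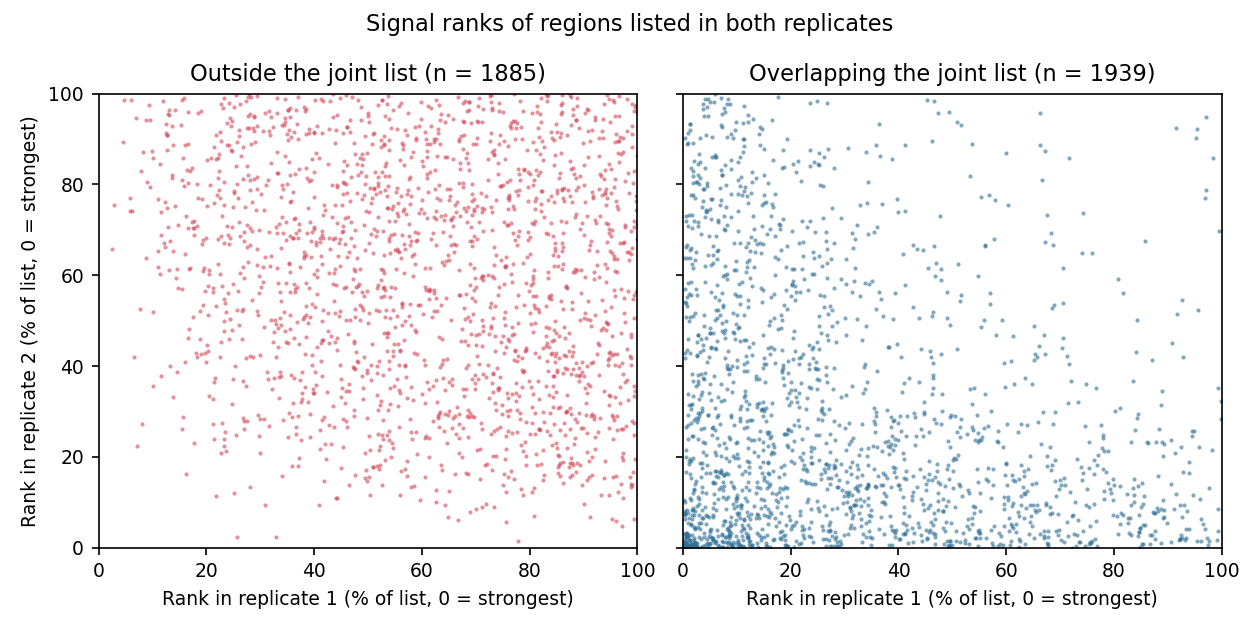
Rank of each region listed in both replicates, as a percentage of list length, in replicate 1 (horizontal axis) and replicate 2 (vertical axis), with 0 the strongest. Points are regions, outside the joint list in the left panel and overlapping it in the right. The 1885 regions outside the joint list leave the lower left corner nearly empty, with 9 in the upper 25% of both lists, where 549 of the 1939 overlapping the joint list lie.

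Over all nuclear regions of replicate 1, the share with a match was 23.5% in the strongest 10% of the list and 11.5% in the weakest, and in replicate 2 it was 23.0% and 10.4%. Outside the joint list the order was the reverse. In the strongest 10% of replicate 1, 1393 of 2686 regions overlapped the joint list, and of the other 1293 just 23 were matched (1.78%, exact 95% interval 1.13 to 2.66). This share was 8.22% at the fifth step of 10% and 9.74% at the weakest (250 of 2568, interval 8.62 to 10.9). The replicate 2 list behaved alike, with 1.31% of the non-joint regions matched in its strongest 10% (21 of 1608) and 8.84% in its weakest (255 of 2884). Among replicate 1 regions that overlapped the joint list, between 43.6% and 59.5% were matched at each step. The joint list was called on both replicates together, so leaving out its regions takes away those strong in both, and the low share outside it describes the rule as well as the regions.

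**Figure D2:**
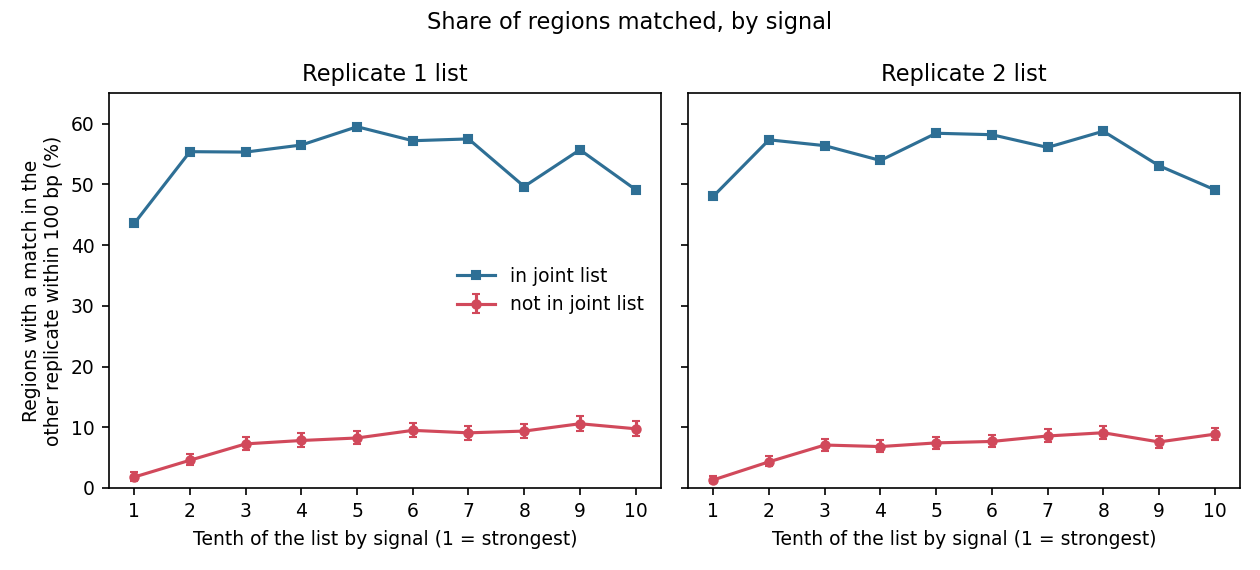
Share of regions with a match within 100 bp in the other replicate (vertical axis, percent), by steps of 10% of the list from strongest, 1, to weakest, 10 (horizontal axis, left panel replicate 1, right panel replicate 2), for regions overlapping the joint list (squares) and not overlapping it (circles, with exact 95% intervals). In replicate 1 the share outside the joint list goes from 1.78% at the strongest step to 9.74% at the weakest, and squares stay between 43.6% and 59.5%.

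How many such matches the length of the lists alone allows can be read from the genome. Positions within 100 bp of a replicate 2 midpoint made up 6.01% of the nuclear genome, and 5.44% of the part where a 396 bp region would not touch a joint region. Of the 23070 replicate 1 regions outside the joint list, 8.17% were matched (exact 95% interval 7.82 to 8.53). Of the 3787 that overlapped it, 51.2% were. Outside the joint list the share matched was thus above the covered share of 5.44%. The next distances were also well filled. Among these 23070 regions the nearest replicate 2 midpoint lay 1 to 100 bp away for 8.11% and 101 to 200 bp away for 6.99%. The share was lower again at larger distances. Whether the excess belongs to coinciding midpoints or to a wider neighbourhood was not tested, so 8.17% is not read as agreement at the same site. The covered share at joint regions themselves was not measured, so 51.2% has no covered share to be read against. The joint list was also called on both replicates together, so a high share matched among regions overlapping it is partly built in. The windows of both replicate lists had a lower median GC content than the genome (32.3% in replicate 1 and 34.3% in replicate 2, against 35.3%), and its part in the excess was not tested.

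The midpoints of shared non-joint regions were spread over the allowed distance. In replicate 2 the nearest midpoint was 0 to 20 bp away for 445 of 1885 (23.6%), 21 to 40 bp for 373 (19.8%), 41 to 60 bp for 368 (19.5%), 61 to 80 bp for 382 (20.3%) and 81 to 100 bp for 317 (16.8%). Shared joint regions crowded near 0, with 641 of 1939 (33.1%) within 20 bp and 237 (12.2%) from 81 to 100 bp. The median distance was 47 bp in the first set and 34 bp in the second. At the limit of the rule, 75 regions with midpoints 96 to 100 bp apart had a median signal of 7.51 in replicate 1, and another 75 just outside it, 101 to 105 bp apart, a median of 7.80. The limit on overlap divided nothing closely: the smallest gap between a shared non-joint region and a joint region was 120 bp, and the smallest overlap of a shared joint region was 69 bp.

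**Figure D3:**
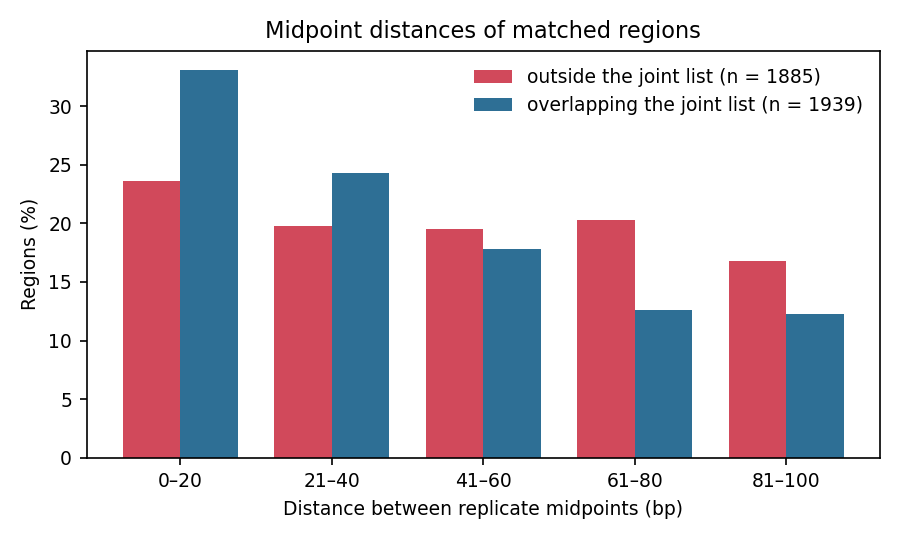
Distance in bp between the replicate 1 and replicate 2 midpoints of matched regions (horizontal axis) and percent of regions in each set (vertical axis). Bars of the 1885 regions outside the joint list run from 23.6% to 16.8%, and those of the 1939 overlapping it from 33.1% to 12.2%.

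Shared non-joint regions lay about as far from joint regions as unmatched regions outside the joint list did. The median gap to the nearest joint region was 8865 bp, against 9158 bp for those 21185 unmatched regions. A gap of at most 1000 bp was found for 142 (7.53%), against 7.34%, and of at most 10000 bp for 1024 (54.3%), against 52.8%. These gaps were not tested. Of the 10 kb bins that held any shared non-joint region, 1533 held 1, 162 held 2, 8 held 3 and 1 held 4. No such count was made for the other sets, so it is not read as a trait of these regions.

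By chromosome, 377 shared non-joint regions lay on X (20%), 358 on V (18.99%), 346 on IV (18.4%), 282 on III (15.0%), 269 on I (14.3%) and 253 on II (13.4%). Unmatched replicate 1 regions were distributed much the same. No chromosome passed the test against them (two-sided Fisher exact test, adjusted p from 0.151 for X, with 20% against 18.1%, to 0.806), and 1 of the 6, X, was under 0.05 before adjustment (p = 0.0375 by the exact test). The share on X was 1.94 percentage points higher, with an odds ratio of 1.13 and an exact 95% interval of 1.01 to 1.28. Regions within a list are not replicates and can lie in clusters, so that p-values over regions can be too small.

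X was also the chromosome most densely listed by replicate 2, with 318 regions per Mb, against 272 on V, the least dense. The share of non-joint replicate 1 regions that were matched was 9.02% on X (exact interval 8.17 to 9.93) and 7.43% on I (6.60 to 8.33), and the share of X within 100 bp of a replicate 2 midpoint outside joint regions was 5.82%, against 5.54% on I. The part of list density in the X value was not tested.

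Against joint regions the shared non-joint set was poorer on chromosome I, with 14.3% against 17.4% (odds ratio 0.790, with an interval of 0.675 to 0.924 and a Fisher exact adjusted p = 0.0314 over 12 tests). The other 5 chromosomes did not pass, with the largest difference among them on V (18.99% against 16.7%, Fisher exact adjusted p = 0.151). The call for chromosome I ended with a match distance of 50 bp (odds ratio 0.780) or 200 bp (0.884). It also ended in the upper 50% of each list (0.696), with 1 region per 10 kb (0.828) and with the ce10 lists (0.8095). On the autosomes 67.7% of shared non-joint regions lay in the arms, taken as the first and last of 3 equal parts of each chromosome, against 67.4% of unmatched and 67.3% of joint regions (Fisher exact adjusted p = 0.842 for each).

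**Figure D4:**
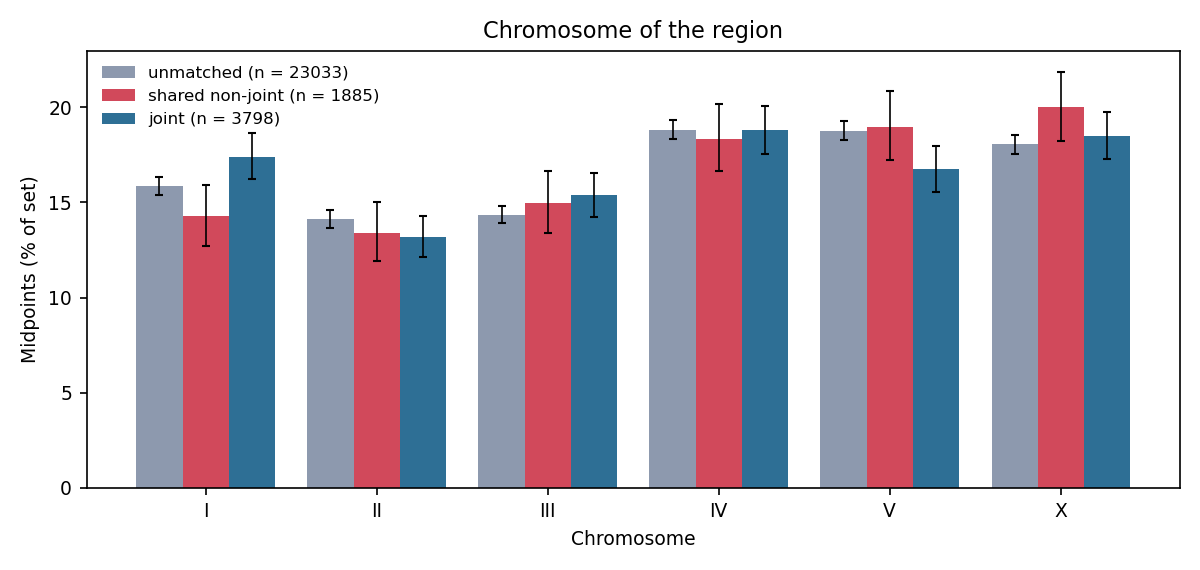
Percent of regions of each set (vertical axis) on each nuclear chromosome (horizontal axis), with exact 95% intervals as error bars, for 23033 unmatched replicate 1 regions, 1885 shared non-joint regions and 3798 joint regions. Chromosome I holds 14.3% of the shared non-joint against 17.4% of the joint regions.

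Shared non-joint regions were at promoters about as often as any replicate 1 region, and less often than joint regions. Promoter windows were taken around the 5′ ends of protein-coding genes in Ensembl release 115, with 500 bp on the upstream and 200 bp on the downstream side. They held the midpoints of 301 shared non-joint regions (15.97%, exact 95% interval 14.3 to 17.7), while 15.4% of all nuclear replicate 1 regions and 13.1% of the nuclear genome lay there. Unmatched regions were there in 14.6%, a difference of 1.41 percentage points that did not pass the test (odds ratio 1.12, with an interval of 0.977 to 1.27 and a Fisher exact adjusted p = 0.194 over 4 tests). Joint regions were there in 22.4%, 6.44 points more (odds ratio 0.658 for shared non-joint against joint, with an interval of 0.567 to 0.762 and a Fisher exact adjusted p = 3.46e-08). With a match distance of 200 bp the difference from unmatched regions passed (1.72 points, Fisher exact adjusted p = 0.0162).

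Coding exons showed the reverse. They held 254 shared non-joint midpoints (13.5%), against 8.27% of joint regions (odds ratio 1.73, with an interval of 1.44 to 2.07 and a Fisher exact adjusted p = 2.2e-08 over 14 tests) and 13.1% of unmatched regions (adjusted p = 0.806), and make up 21.9% of the nuclear genome. Set against the unmatched regions of replicate 2, where exons held 18.0%, the exon share of the shared regions, taken at their replicate 2 midpoints, was lower (13.5%, Fisher exact adjusted p = 2.14e-06). In the upper 50% of each list, which left 191 shared non-joint regions, the exon call against joint regions ended (10.5% against 6.09%, Fisher exact adjusted p = 0.205). The odds ratio there was 1.80, against 1.73 over the whole lists, while the difference was 4.38 percentage points, against 5.21. Noncoding RNA genes held 27 shared non-joint midpoints (1.43%) against 2.63% of joint regions (odds ratio 0.537, with an interval of 0.336 to 0.833 and a Fisher exact adjusted p = 0.0189) and 1.62% of unmatched ones (adjusted p = 0.806). This call ended in the upper 50% of each list (odds ratio 0.288), with 1 region per 10 kb (0.604) and with a promoter window from 1000 bp upstream (0.620).

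Introns held 655 shared non-joint midpoints (34.7%), against 31.5% of joint (Fisher exact adjusted p = 0.0521) and 35.96% of unmatched regions (adjusted p = 0.612). The difference from joint regions passed in 4 alternatives: with a match distance of 200 bp (Fisher exact adjusted p = 0.00919), with 1 region per 10 kb (0.00400), with shared joint regions as the joint set (0.0250) and with a promoter window from 1000 bp upstream (0.0498). Intergenic sequence held 567 (30.1%), and annotated pseudogenes outside the other classes were counted in it. The 3′ UTRs held 72 (3.82%) and 5′ UTRs outside promoter windows 9 (0.477%). These last 3 classes did not pass against either set. Of the 7 classes, 0 were under 0.05 against unmatched regions even before adjustment. Against only the unmatched regions outside the joint list, promoter windows were (15.97% against 14.25%, Fisher exact p = 0.0434). They did not pass after adjustment (Fisher exact adjusted p = 0.121). From the midpoint to the closest protein-coding 5′ end the median was 1545 bp for shared non-joint, 1609 bp for unmatched and 1386.5 bp for joint regions. Each midpoint was given a single class, promoter first, so a lower promoter share raises the others.

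**Figure D5:**
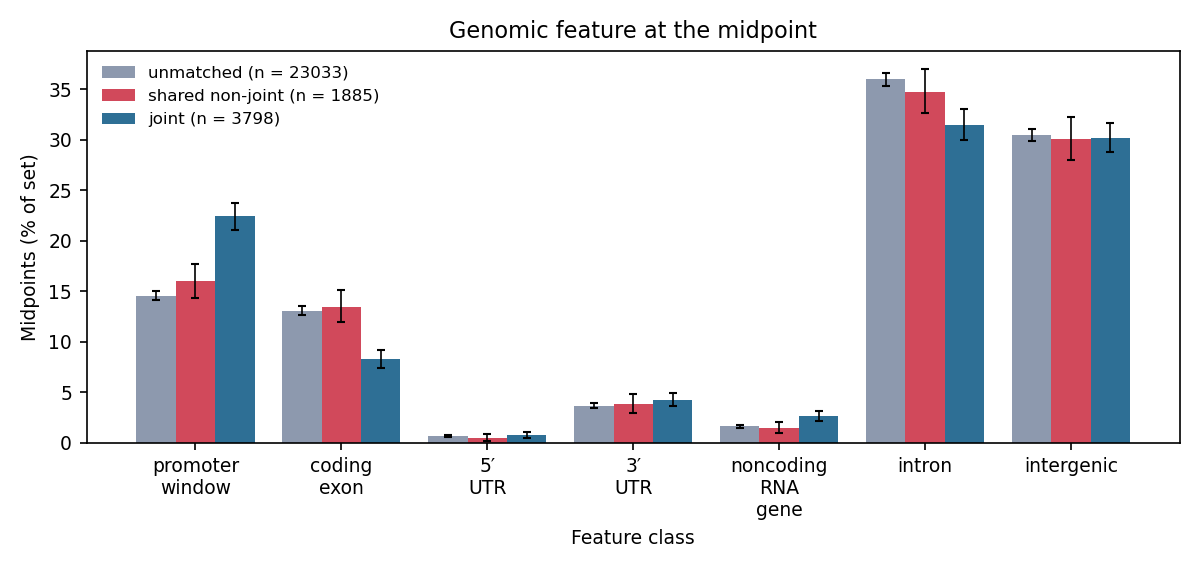
Percent of midpoints of each set (vertical axis) in each feature class (horizontal axis), with exact 95% intervals as error bars, for 23033 unmatched replicate 1, 1885 shared non-joint and 3798 joint regions. Shared non-joint and unmatched bars are close in every class, and joint regions have more promoter (22.4% against 15.97%) and fewer exon midpoints (8.27% against 13.5%).

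The regions best placed in both lists were spread over promoters, genes and intergenic sequence. Of the 20 that led by the worse of their 2 ranks, 4 had the midpoint in a promoter window, 6 in an intron, 2 in a coding exon and 8 in intergenic sequence. The first, on chromosome IV at 3755696 to 3756091, had a signal of 10.9 in replicate 1 (rank 4359) and of 9.66 in replicate 2 (rank 4858), with midpoints 59 bp apart. It lay 327 bp upstream of best-20 (WBGene00021368), of the bestrophin family of anion channels, and in the window of Y37E11AR.7 as well. The nearest joint region was 12940 bp away.

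The third, on chromosome III at 6375002 to 6375397, stood between rps-13, which encodes a protein of the small ribosomal subunit, and nfx-1, and lay in the promoter windows of both. Its signal was 12.9 in replicate 1 (rank 1914) and 8.92 in replicate 2 (rank 6744), with midpoints 48 bp apart and a gap of 488 bp to a joint region. The fifth, on chromosome V at 3644278 to 3644673, was 233 bp upstream of F59B1.8, with signals of 10.7 and 8.87 (ranks 4762 and 6934). A region on X at 6207373 to 6207768, 116 bp downstream of the 5′ end of T13C5.6, was the most unequal of the 4, with a signal of 9.79 in replicate 1 (rank 6915) and 14.2 in replicate 2 (rank 717).

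Among the intergenic regions, the second of the 20 lay on X at 6643399 to 6643794, 2057 bp upstream of C56E10.3, with signals of 10.2 and 10.4 and midpoints 15 bp apart. Another on chromosome IV at 5970596 to 5970991 was 4763 bp upstream of unc-44, an ankyrin of neurons, within 200 bp of the piRNA gene 21ur-3556, with signals of 10.1 and 9.11. One on chromosome IV at 15178568 to 15178963, upstream of the chemoreceptor gene srd-23, lay within 200 bp of 3 piRNA genes, 21ur-2775, 21ur-7168 and 21ur-7200, with signals of 9.99 and 9.05. The remaining intergenic regions were nearest to fbxa-37, pitr-2, C12D5.4, K05F1.6 and Y50D4C.3, at 562 to 1705 bp. None of these distances places a region at a gene by itself.

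Those inside genes were in introns of pinn-4, cab-1, F48A11.4, mpz-1, Y52B11A.4 and C11E4.8 and in coding exons of ttc-7 and flcn-1, the worm folliculin gene. The mpz-1 gene encodes a protein with many PDZ domains, and its region on chromosome II (10768845 to 10769240) lay 9083 bp into the gene, with signals of 9.66 and 8.58. The flcn-1 region, on the same chromosome at 6929200 to 6929595, had signals of 9.61 and 8.41. Over all 20, replicate 1 signals ran from 9.61 to 12.9 and replicate 2 signals from 8.41 to 14.2.

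Promoter windows with a shared non-joint midpoint belonged to 337 of 19973 protein-coding genes (1.69%), while 994 (4.98%) had a joint and 3461 (17.3%) an unmatched replicate 1 midpoint. None of the 337 genes also had a joint midpoint in its window, an outcome for which the rule left little room. The smallest distance from a shared non-joint midpoint to a joint midpoint was 506 bp, and a window spans only 500 bp upstream and 200 bp downstream. Of the 301 regions in windows, 37 lay in those of at least 2 genes, and Y45G12B.2 was the single gene with 2 such regions. The gene lists below are read against 1.69% and were given no test.

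Of 81 genes for cytosolic ribosomal proteins, 3 (3.70%) had a shared non-joint midpoint in their windows, against 31 (38.3%) with a joint midpoint. These were rps-13, given above, rpl-38 and rpl-13. The rpl-38 region (chromosome V, 15511729 to 15512124) was 239 bp upstream with a signal of 10.2 in replicate 1 (rank 5767) and 7.76 in replicate 2 (rank 10965), and the rpl-13 region (chromosome I, 3787644 to 3788039) 194 bp upstream with 7.81 and 8.12. Neither lay in the window of another gene. Histone genes had 0 of 72, and small heat shock and DnaJ chaperone genes 0 of 35, where 4 and 7 had a joint midpoint.

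Of 274 nuclear hormone receptor genes, 6 (2.19%) had a shared non-joint midpoint and 14 (5.11%) a joint one. The 3 leading ones were nhr-286, nhr-154 and nhr-2. The nhr-286 region (chromosome V, 7091712 to 7092107) was 300 bp upstream, with signals of 7.81 and 6.94 and midpoints 98 bp apart. The nhr-154 region (chromosome V, 12100769 to 12101164) was 326 bp upstream with 7.62 and 6.79, and the nhr-2 region (chromosome I, 5821397 to 5821792) 461 bp upstream with 7.48 and 6.65. All 3 ranked in the lower 50% of both lists.

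Seven-transmembrane chemoreceptors, the sensory receptors that form one of the largest worm gene families, had 13 of 1285 (1.01%), led by srw-31 (chromosome V, 17506145 to 17506540, signals 10.6 and 7.36), srab-21 and sre-41. Of 89 genes for ligand-gated ion channels 3 (3.37%) had one: glr-7, of the glutamate receptor family, lgc-33 and lgc-23. The glr-7 midpoint lay 150 bp inside the gene, with a signal of 8.01 in replicate 1 (rank 13505) and 9.75 in replicate 2 (rank 4692). Of the 23 genes for G protein subunits gsa-1, the stimulatory alpha subunit, had one, with signals at opposite ends of the 2 lists: 6.00 in replicate 1 (rank 26728 of 26878) and 11.8 in replicate 2 (rank 1912 of 30000).

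Of 140 neuropeptide and insulin genes 3 (2.14%) had a shared non-joint midpoint: nlp-30, ins-18 and flp-1. That share was near the 1.69% of all protein-coding genes. A joint midpoint was found for 1 gene of the list (0.714%) and an unmatched one for 19 (13.6%). The flp-1 gene encodes FMRFamide-like peptides, and its region (chromosome IV, 9144373 to 9144768) was 134 bp upstream with signals of 7.87 and 5.43. The nlp-30 region (chromosome V, 3981604 to 3981999) was 178 bp upstream with 6.83 and 9.74. F-box genes had 4 of 322 (1.24%), led by fbxa-197, fbxa-5 and fbxa-128, and C-type lectins 2 of 240 (0.833%), clec-224 and clec-256.

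Glutathione S-transferases had 2 of 44 (gst-42, whose region also lay in the window of D1053.2, and gst-20), and fatty acid metabolism 1 of 75, the acyl-CoA synthetase gene acs-6 (415 bp upstream, signals 7.73 and 5.33). No member with a shared non-joint midpoint was found among 156 collagen, 63 homeobox, 74 cytochrome P450, 67 UDP-glucuronosyltransferase, 57 potassium channel and 31 adhesion genes. At the background of 1.69%, lists of this size hold few genes, so a count of 0 carries little information.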

How the data were processed

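ChIP-seq for tagged NHR-12 was done on 2 replicates of 1 group. The authors deposited region lists with a score (the signal value of their caller) and a −log10 q-value per region, per the deposited description of file types. Replicate lists were called per replicate and the joint list on both alignments, with 1 control file. The aligner, caller and versions are not given in the sources used here. The p-value column held a placeholder, and the q-values were used as description only.

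Regions were matched by the point the files give (the midpoint), on ce11, within 100 bp, and annotated with Ensembl release 115 on WBcel235. Mitochondrial regions were left out. Shares were compared by the two-sided Fisher exact test (scipy 1.17.1, Python 3.11.15), adjusted by Benjamini-Hochberg over 12 chromosome tests, 14 feature tests and 4 tests of promoter and arm shares, with a threshold of 0.05. Shares carry exact (Clopper-Pearson) 95% intervals, which cover counting error only. The share tests were first run on simulated midpoints drawn independently of each other, which cannot show how clustered regions affect the p-values. The 18 gene lists were defined by gene symbol. The named regions were the 20 with the best worse-of-both rank, up to 3 genes per list by the same order, and nhr-12 and unc-119. The members and lists were chosen with earlier results of these data known. Alternatives changed the match distance, the distance from joint regions, the rank limit, thinning to 1 region per 10 kb, the replicate that gives the regions, the genome build, the comparison sets and the promoter window.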

Additional observations from a re-analysis of the deposited data

How the results depend on the processing

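The number of shared non-joint regions was 999 with a match distance of 50 bp, 3497 with 200 bp and 191 in the upper 50% of each list. It was 1704 with 1 region per 10 kb and 2304 with the ce10 lists. The lower promoter share against joint regions passed under each alternative run for it, from 4.35 to 11.6 percentage points lower. Against unmatched regions the promoter difference passed with a distance of 200 bp (1.72 points). With 200 bp the differences in arm share changed sign, to -0.549 points against unmatched and -0.352 against joint regions, as did that against shared joint regions (-0.0243), none of them past the threshold. Chromosomes that differed from joint regions numbered 1, and 0 with distances of 50 or 200 bp, the upper 50% of each list, 1 region per 10 kb and the ce10 lists. Feature classes that differed from joint regions numbered 3, and 1 in the upper 50% of each list (promoter windows). They numbered 4, with introns added, at 200 bp and against shared joint regions. With 1 region per 10 kb and with the window from 1000 bp upstream they numbered 3, with introns in place of noncoding RNA genes. Feature classes that differed from unmatched regions numbered 0, and 1 with 200 bp (promoter windows) and with replicate 2 regions (coding exons). The cause was not tested. Requiring over 500 bp to every joint midpoint removed no region and could change nothing. Of the other 28 tested differences, 24 kept their direction and their side of the threshold, and of 36 counts 25 were within 1.5 times the reported count. Leaving out a replicate was not possible, since the rule needs both. No paired analysis was possible because there is 1 group. The lists hold no counts, so the depth limits are unknown.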

Other observations

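Genes for snoRNA and snRNA lay beside shared non-joint regions about as often as beside unmatched ones, and less often than beside joint regions. A midpoint lay within 200 bp of an annotated snoRNA gene for 3 of 1885 regions (0.159%, exact 95% interval 0.0328 to 0.464), against 48 of 3798 joint regions (1.26%, interval 0.933 to 1.67) and 0.239% of unmatched replicate 1 regions. For snRNA genes the counts were 1 (0.0531%), at Y69A2AR.36, against 19 joint regions (0.500%) and 0.0782% of unmatched ones. For tRNA genes they were 13 (0.690%, interval 0.368 to 1.18) against 47 (1.24%) and, among 23033 unmatched regions, 91 (0.395%), so that the shared non-joint share was between the other sets. These counts were not tested.

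Genes for miRNA were near 5 shared non-joint regions (0.265%, interval 0.0862 to 0.618), 8 joint ones (0.211%) and 35 unmatched ones (0.152%). The interval held both other shares, and the counts were not tested. The best placed lay on X at 13759249 to 13759644 by cel-mir-5592-1 and cel-mir-5592-2, with midpoints 7 bp apart and signals of 7.69 and 6.82. Another on X, at 13144707 to 13145102, lay by the cluster of cel-mir-54, cel-mir-55, cel-mir-55b and cel-mir-56, with signals of 8.67 and 6.12. A region by cel-mir-34, a conserved miRNA, had 6.65 in replicate 1 (rank 21729) and 11.5 in replicate 2 (rank 2115). Genes for piRNA, the small RNAs that guard the germline against foreign sequence, were within 200 bp of 84 shared non-joint midpoints (4.46%, interval 3.57 to 5.49), 5.64% of unmatched and 4.87% of joint ones.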
